A study of Mus musculus with 16 samples.

Results

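The 37 transcripts of the mouse mitochondrial genome were followed in newly made RNA of embryonic stem cells, which are lines of pluripotent cells that renew themselves in culture. They were chosen by gene identifier, although with earlier results of these data known. The set comprises 13 protein genes, 2 rRNA genes and 22 tRNA genes of 54446 mouse identifiers counted in every library. The cells, of strain C57BL/6, were either Mettl14 Control or Mettl14 CKO, and the series' design text calls the second a Mettl14 knockout. EU (5-ethynyl uridine), a uridine analogue that cells build into RNA as they transcribe, was added at 0.5 mM to cells seeded 48 h earlier, and labelled their RNA during the last 10, 20, 30 or 60 min of culture. All groups grew in serum medium with LIF and the inhibitors CHIR99021 and PD0325901. The labels name no Cre line, clone number or unlabelled control, and they do not say that the 2 libraries of each of the 8 groups came from separate cultures. The spread that enters the p-values is therefore that among these 16 samples and may be technical. The study compared transcription rates between the genotypes.

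Mitochondrial DNA is transcribed from both strands by a dedicated polymerase, POLRMT, into long precursors. The heavy-strand precursor carries the rRNAs, most tRNAs and every mitochondrial mRNA except that of Nd6, which lies on the light-strand precursor. The precursors are cut mainly at the tRNAs that punctuate them, and the resulting mRNAs encode core subunits of the respiratory chain. METTL14 is a partner of METTL3 in the nuclear complex that methylates adenosines in RNA.

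Library depth was 5109162 to 28502750 mouse counts, and both CKO 30 min libraries, at 5188643 and 5109162, were the shallowest. They also had a count for 30583 and 31826 mouse identifiers, where no other library exceeded 26857. ERCC RNA, a synthetic spike-in, made up 0.643% to 7.97% of all counts. In each of the 8 groups the replicates were further apart than sampling noise. The level of Mettl14 and markers of stem cells and fibroblasts were not analysed here, because the gene table used matched 0 identifiers, so the genotype and cell type labels were not checked.

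Protein genes dominated the mitochondrial counts. Of 8473388 mitochondrial counts over the 16 libraries, 92.5% came from the 13 protein genes, 7.40% from the rRNA genes and 0.106% from the tRNA genes. Levels along the genome differed by orders of magnitude when expressed as CPM (counts scaled to a total of 1000000 mouse counts) per kilobase, with gene lengths from RefSeq. Nd1, the complex I gene at MT:2751-3707, had the highest average over the 16 libraries, 7349 CPM per kb, and stood above Nd2 in 16 of 16. Nd2 (MT:3914-4951) followed at 3801, Cytb of complex III (MT:14145-15288) at 3275 and Nd5 (MT:11742-13565) at 3069 CPM per kb. The order of Cytb and Nd5 held in only 9 of 16 libraries and that of Nd2 and Cytb in 12, so these neighbours were not separated. Co1, the catalytic subunit of complex IV (MT:5328-6872), averaged 2049 CPM per kb, Nd4 (MT:10167-11544) 1582 and Nd6 (MT:13552-14070) 1459. Co1 exceeded Nd4 in 16 of 16 libraries and Nd4 exceeded Nd6 in 11. In both CKO 30 min libraries the order differed, and Nd6 was the highest protein gene at 4127 and 3464 CPM per kb, above Nd1 at 1966 and 1919.

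A stretch of 6 neighbouring genes was nearly empty of counts. From Co2 to Nd4l (MT:7013-10173), these genes make up 26.3% of the length of the protein genes but gave 0.126% of their counts. Co2 (complex IV) averaged 32.5 CPM per kb, Atp6 and Atp8 (ATP synthase) 13.4 and 9.05, Co3 (complex IV) 7.95, and Nd4l and Nd3 (complex I) 5.93 and 3.49. Nd6, which had the lowest average of the other 7 protein genes, exceeded Co2 in 16 of 16 libraries, with a median ratio of 57.3. RefSeq (GRCm38.p6) places the pseudogene Gm10222 at chr1:24612404-24612700 and Gm10925, listed under the synonym mt-Atp6, at chr1:24613971-24614651. Their lengths of 297 and 681 bases equal those of Nd4l and Atp6. Reads shared with a near-identical nuclear copy may be counted at neither place, and the handling of such reads is not given in the sources used here. The values of Nd4l and Atp6 are uncertain for that reason, and those of Co3 and Nd3, which lie between them on the mitochondrial genome, may be as well. No sequence was compared, and whether the low counts of the 6 genes have this cause was not tested. Atp8 with Atp6, Nd4l with Nd4 and Nd5 with Nd6 also overlap.

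**Figure D1:**
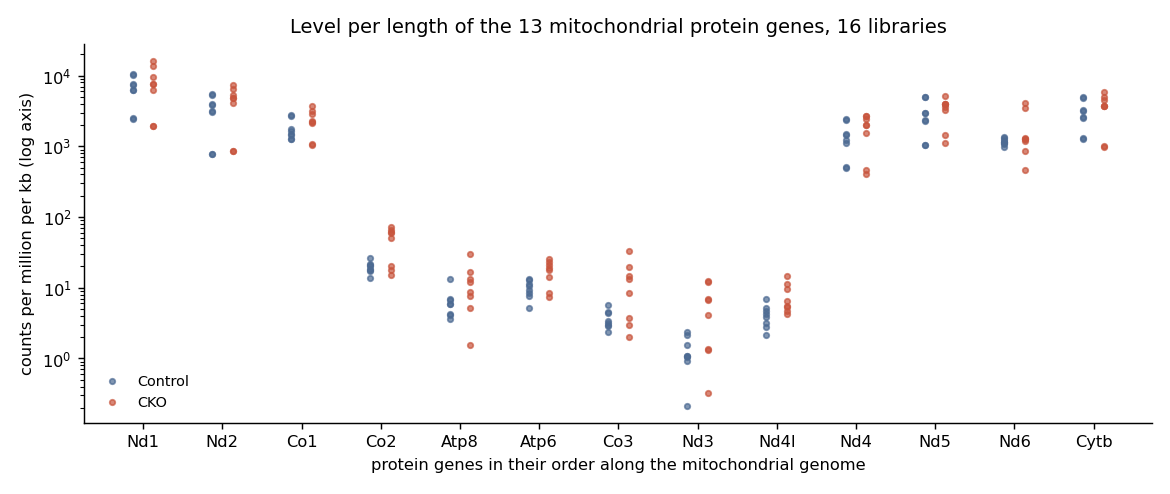
Level of each of the 13 protein genes in CPM per kilobase (log axis), in genome order, with a point for each of the 16 libraries (blue Control, red CKO). The 6 genes from Co2 to Nd4l lie far below the other 7: their means are 3.49 to 32.5 CPM per kb, against 1459 to 7349.

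The mitochondrial share of mouse counts was highest at 60 min in Control cells and at 10 min in CKO cells, and lowest at 30 min in both. In Control libraries it was 2.34% and 2.35% at 10 min, 2.82% and 2.84% at 20 min, 1.15% and 1.17% at 30 min, and 4.13% and 4.10% at 60 min. In CKO libraries it was 4.91% and 4.29% at 10 min, 3.25% and 3.28% at 20 min, 1.25% and 1.15% at 30 min, and 2.85% and 4.03% at 60 min. The CKO share was therefore above Control at 10 and 20 min, overlapped it at 30 min and lay below it at 60 min, without overlap at the other times. At 10 min the CKO share was 1.96 times that of Control. In bulk samples such as these, fewer cells with a transcript and less of it per cell cannot be told apart. Averaged over EU times the log2 ratio was 0.23, which did not pass an exact permutation test of genotype within EU time (two-sided p = 0.181, Benjamini-Hochberg 0.271 over 6 measures, n = 8 libraries a genotype). The ratio turned to -0.0123 without the 10 min libraries. The 95% Wilson intervals of these shares are at most 0.0123 percentage points to either side and cover counting error only.

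**Figure D2:**
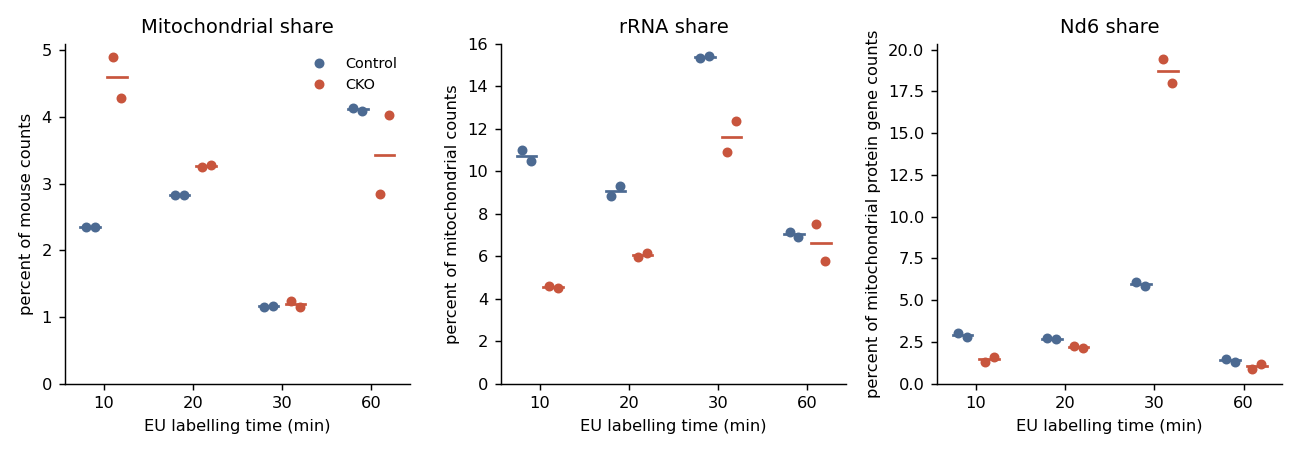
Mitochondrial percent of mouse counts (left), rRNA percent of mitochondrial counts (middle) and Nd6 percent of mitochondrial protein gene counts (right) against EU labelling time in min, with a point per library and a bar at the mean of 2. The 10 min CKO libraries are highest in the left panel at 4.91% and 4.29%, all rRNA shares in CKO are below Control at 10, 20 and 30 min, and the Nd6 share reaches 19.4% and 18.0% in the CKO 30 min libraries.

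All 6 abundant protein genes of the heavy-strand precursor (Nd1, Nd2, Co1, Nd4, Nd5 and Cytb) rose in CKO against Control after 10 min of EU. The change was tested with edgeR's quasi-likelihood test on TMM-scaled counts, with Benjamini-Hochberg adjustment over all 27488 identifiers that passed its filter on low counts. Of the 37 mitochondrial genes 25 passed that filter, all 15 rRNA and protein genes and 10 tRNA genes, and without the 30 min libraries 23 did. At 10 min 10 of these 25 were called, 9 higher and 1 lower in CKO, against a background of 11.8% of all identifiers tested in either direction, 6.45% higher and 5.36% lower. The median log2 fold change was 1.00 over the 25 genes and 0 over all identifiers. Without the 30 min libraries 10 of 23 were called, against a background of 22.8%.

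Among the complex I genes, Nd1 had 5947 and 5949 CPM in Control and 15274 and 13014 CPM in CKO at 10 min. Its log2 fold change was 1.32 (SE 0.16, adjusted p = 0.000668 in edgeR with Benjamini-Hochberg), with both CKO libraries far above both Control libraries. Nd2 had 3186 and 3288 CPM in Control and 7512 and 6759 CPM in CKO, a log2 fold change of 1.21 (SE 0.08, adjusted p = 1.39e-10 in edgeR with Benjamini-Hochberg). Both genes kept the call whichever library was left out. Nd4 had 1552 and 1673 CPM in Control and 3678 and 3344 CPM in CKO, a log2 fold change of 1.20 (SE 0.20, adjusted p = 0.00507 in edgeR with Benjamini-Hochberg). The Nd4 groups did not overlap, and the call was lost without Control 10 min replicate 1, at an adjusted p of 0.0702. Nd5 had 4356 and 4177 CPM in Control and 7258 and 6552 CPM in CKO, a log2 fold change of 0.77 (SE 0.19, adjusted p = 0.0363 in edgeR with Benjamini-Hochberg). Nd5 was the smallest of the 6 changes, and although its fold change stayed between 0.69 and 0.80 it was called in only 4 of the 16 fits that left out 1 library, with adjusted p up to 0.195.

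The complex III gene and Co1 of complex IV also rose. Cytb had 2917 and 2973 CPM in Control and 6623 and 5709 CPM in CKO at 10 min, a log2 fold change of 1.14 (SE 0.07, adjusted p = 6.80e-11 in edgeR with Benjamini-Hochberg). Co1 had 2217 and 2308 CPM in Control and 5736 and 4828 CPM in CKO, a log2 fold change of 1.30 (SE 0.08, adjusted p = 7.05e-11 in edgeR with Benjamini-Hochberg). Neither pair of groups overlapped, and both calls held in 16 of 16 fits that left out a library. Under ERCC scaling the median over all identifiers at 10 min was itself 1.14 on the log2 scale, and the 6 genes stood at 2.09 (Nd5) to 2.64 (Nd1).

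**Figure D3:**
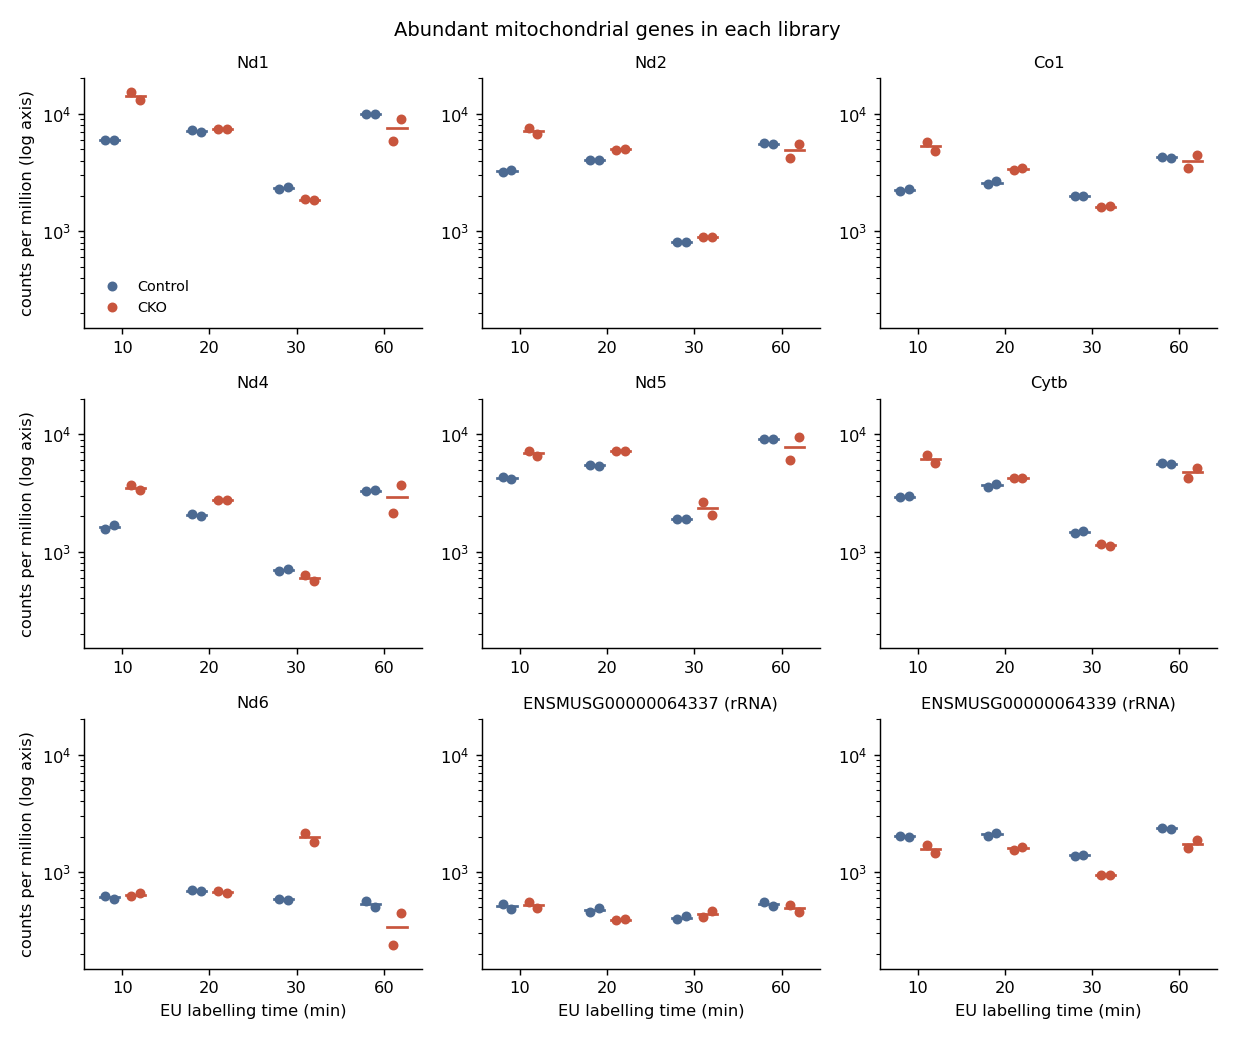
CPM (log axis) of 9 abundant mitochondrial genes in each of the 16 libraries against EU labelling time in min, with a bar at the mean of 2. The heavy-strand mRNAs (Nd1, Nd2, Co1, Nd4, Nd5, Cytb) are higher in CKO at 10 min and low in both genotypes at 30 min, whereas Nd6 is at 2142 and 1798 CPM in the CKO 30 min libraries.

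At later times these mRNAs differed less between the genotypes or in the opposite direction. At 20 min 2 of 25 mitochondrial genes were called, against a background of 0.96%, with 1 higher (background 0.706%) and 1 lower. Without the 30 min libraries 2 of 23 were called (background 1.9%). Co1 was higher in CKO (3327 and 3481 against 2509 and 2670 CPM), with a log2 fold change of 0.39 (SE 0.08, adjusted p = 0.0123 in edgeR with Benjamini-Hochberg). This call held in 9 of 16 fits without 1 library. The other 5 mRNAs had log2 fold changes of 0.03 (Nd1) to 0.42 (Nd4) and did not pass. The number called at 20 min was higher without any one of the CKO 30 or 60 min libraries. It was lower without Control 10 min replicate 1 or any one of the 20 min or Control 30 min libraries. In these fits the share of all identifiers called moved in the same direction, and where it rose it did so by less than the mitochondrial share.

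At 60 min 2 of 25 genes were called, 1 higher (background 1.79%) and 1 lower (0.84%), against a background of 2.63% in either direction, and none of the 6 abundant mRNAs was among them. Nd1 had 9924 and 9864 CPM in Control and 5912 and 9086 CPM in CKO at 60 min, a log2 fold change of -0.35 (SE 0.16, adjusted p = 0.550 in edgeR with Benjamini-Hochberg). Both CKO libraries were lower than both Control libraries, and CKO replicate 2 was nearer to Control than to CKO replicate 1. Without the 30 min libraries 2 of 23 genes were called (background 4.93%). The 6 fold changes ran from -0.35 (Nd1) to -0.05 (Co1). This count rose without CKO 60 min replicate 2 or either CKO 30 min library, and fell without any other single library. In the fits where it rose, the share of all identifiers called rose as well, but by less than the mitochondrial share.

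Over all EU times together 3 of 25 genes were called, 2 higher (background 6.77%) and 1 lower (4.7%), against a background of 11.5% in either direction, and again none of the 6 mRNAs passed. Their log2 fold changes over all EU times were 0.08 (Nd1) to 0.30 (Nd2), beside a median of 0.19 over all identifiers. That median was 0.016 under a stricter filter on low counts and -0.015 without the 30 min libraries. Without the 30 min libraries 2 of 23 genes were called, both lower, against a background of 12.6%.

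The 6 abundant heavy-strand mRNAs had less CPM at 30 min than at 20 min in both genotypes. In Control cells Nd2 averaged 4.97 times less CPM at 30 min than at 20 min, Nd1 3.06 times, Nd4 2.94 times, Nd5 2.87 times and Cytb 2.49 times. In CKO cells the same ratios were 5.62 for Nd2, 3.96 for Nd1, 4.60 for Nd4, 3.05 for Nd5 and 3.70 for Cytb. Co1 had ratios of 1.31 in Control and 2.1 in CKO, and per ERCC count it was 1.38 times higher at 30 min in Control. The genes from Co2 to Nd4l, which had few counts, did not share this fall in CKO. There their CPM at 30 min was 1.98 (Nd4l) to 14.65 (Nd3) times that at 20 min. In Control Co2, Co3, Nd3 and Nd4l were 1.17 to 1.81 times higher at 30 min, while Atp6 and Atp8 were lower. These differences between 20 and 30 min were not tested, and a time and the set of libraries collected at it cannot be told apart.

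At 30 min 9 of 25 mitochondrial genes were called, 5 higher (background 29.4%) and 4 lower (19.1%) in CKO, against a background of 48.5% in either direction, and the median log2 fold change over all identifiers was 0.61. The share called was 36% of the 25, below the background here, but the order depended on the setting: DESeq2 called 14 of 25 against 38.9% of all identifiers. Under a stricter filter on low counts edgeR called 8 of 15 against 49.2%, and the median over all identifiers was 0.023 instead of 0.61. Without CKO 30 min replicate 1 edgeR called 13 of 27 against 37.6%, and without Control 30 min replicate 1 it called 7 of 27 against 19.8%. Nd1 (2310 and 2399 CPM in Control, 1881 and 1836 CPM in CKO) was lower, with a log2 fold change of -0.62 (SE 0.16, adjusted p = 0.0131 in edgeR with Benjamini-Hochberg). Cytb (1443 and 1508 CPM in Control, 1169 and 1127 CPM in CKO) was lower by -0.64 on the log2 scale (SE 0.07, adjusted p = 1.57e-07 in edgeR with Benjamini-Hochberg). Co1 was lower by -0.57 (SE 0.08, adjusted p = 6.52e-06 in edgeR with Benjamini-Hochberg). The Co1 and Cytb calls held in 16 of 16 fits without 1 library. The Nd1 call was lost with size factors of DESeq2, with library totals, under a stricter filter on low counts and without either Control 30 min library.

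**Figure D4:**
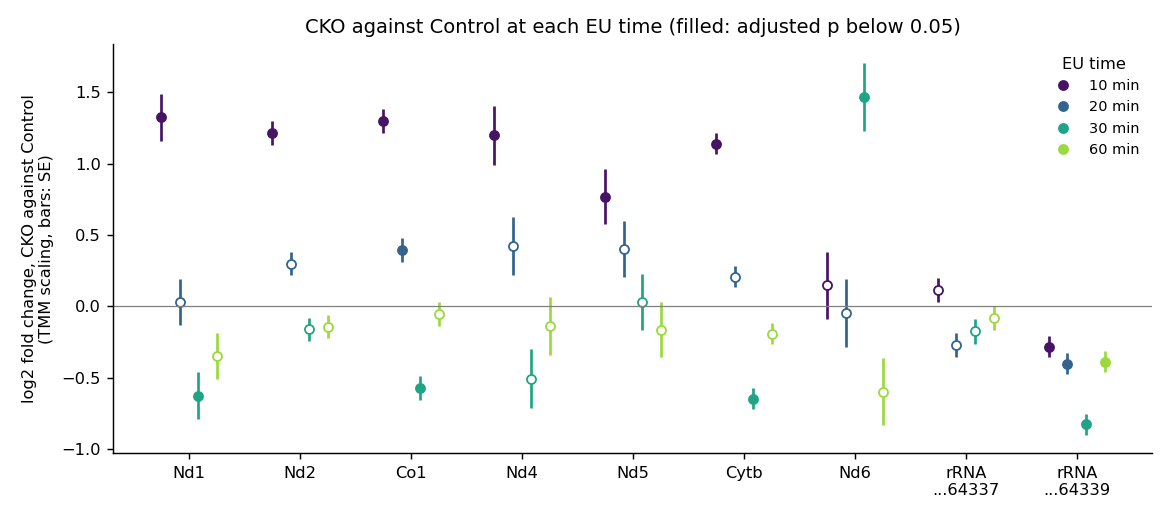
Log2 fold change of CKO against Control (edgeR, TMM scaling) for 9 abundant mitochondrial genes at each EU time, with bars of 1 SE. Filled points have an adjusted p below 0.05. The 6 heavy-strand mRNAs lie between 0.77 and 1.32 at 10 min and at or below 0.42 at all other times, and the rRNA ENSMUSG00000064339 is below 0 at all 4.

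Nd6, a complex I subunit and the sole mRNA of the light-strand precursor, did not follow the others. At 10 min it had 630.5 and 591 CPM in Control and 620 and 663 CPM in CKO, overlapping groups with a log2 fold change of 0.15 (SE 0.24, adjusted p = 0.829 in edgeR with Benjamini-Hochberg). At 20 min it had 704 and 687 CPM in Control and 684 and 665 CPM in CKO. At 30 min Control libraries stayed at 593 and 580 CPM, whereas the CKO libraries had 2142 and 1798 CPM, above all others. That difference was 1.47 on the log2 scale (SE 0.24, adjusted p = 0.00135 in edgeR with Benjamini-Hochberg) and was called in 16 of 16 fits without 1 library. Co2 and Co3 of the heavy strand were also called higher in CKO at 30 min, by 1.02 and 2.08 on the log2 scale. The background called higher there was 29.4%, and the CKO 30 min libraries were the shallowest. At 60 min Nd6 had 566 and 507 CPM in Control and 238 and 445 CPM in CKO. Its log2 fold change of -0.60 (SE 0.24) did not pass (adjusted p = 0.398 in edgeR with Benjamini-Hochberg). The overall fold change of Nd6 was 0.23 and turned to -0.18 without the 30 min libraries, with neither called. Whether counting used strand is not given in the sources used here. Reads of Nd6 therefore cannot be told apart from antisense reads of the opposite strand at its locus.

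Nd6 as a share of the protein gene counts was lower in CKO except at 30 min. In Control libraries it was 3.03% and 2.82% at 10 min, 2.74% and 2.68% at 20 min, 6.09% and 5.85% at 30 min and 1.48% and 1.33% at 60 min. In CKO libraries it was 1.32% and 1.62%, 2.24% and 2.17%, 19.4% and 18.0%, and 0.904% and 1.17% at the same times. The groups overlapped at no EU time, with log2 ratios of CKO to Control of -0.995, -0.30, 1.65 and -0.44. The average ratio was -0.02 (exact permutation p = 0.924, Benjamini-Hochberg 0.924). Without the 30 min libraries it was -0.58, with an exact permutation p of 0.00926, the smallest that 216 assignments can give, and a Benjamini-Hochberg value of 0.0556. The Wilson intervals extend at most 0.333 percentage points to either side.

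The rRNA genes, whose products build the mitochondrial ribosome, did not share the rise of the mRNAs at 10 min: 1 of the 2 was lower in CKO and the other did not pass the test. ENSMUSG00000064339 had 2039 and 1979 CPM in Control and 1696 and 1445 CPM in CKO at 10 min, 2035 and 2150 against 1552 and 1623 at 20 min, 1375 and 1395 against 949 and 952 at 30 min, and 2394 and 2320 against 1615 and 1864 at 60 min. Both CKO libraries were below both Control libraries at every EU time. Its overall log2 fold change was -0.47 (SE 0.10, adjusted p = 0.00402 in edgeR with Benjamini-Hochberg), called in 16 of 16 fits without 1 library. It was called lower at each EU time, by -0.28, -0.40, -0.83 and -0.39 on the log2 scale from 10 to 60 min. These changes are relative to other genes: under ERCC scaling the value at 10 min turned to 1.04 and that at 20 min to 0.00019, where it was called higher at 10 min and was not called at 20 or 60 min or over all EU times. At 10 min the call was also lost without Control 10 min replicate 1 and without CKO 10 min replicate 2.

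ENSMUSG00000064337, the other rRNA gene, had 387 to 561 CPM in all 16 libraries. It had 538 and 484 CPM in Control and 558 and 494 CPM in CKO at 10 min, which overlapped. Its overall log2 fold change was -0.10 (SE 0.09, adjusted p = 0.474 in edgeR with Benjamini-Hochberg) and turned to 0.31 under ERCC scaling, and it was called at no EU time. The rule by which the genes were chosen does not say which identifier is the large and which the small rRNA.

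The rRNA share of mitochondrial counts was lower in CKO, by a factor of 0.669 on average. It was 10.99% and 10.49% in Control and 4.59% and 4.52% in CKO at 10 min, and 8.83% and 9.32% against 5.97% and 6.18% at 20 min. It was 15.4% and 15.5% against 10.9% and 12.4% at 30 min, and 7.15% and 6.92% against 7.51% and 5.77% at 60 min. The groups were apart at 10, 20 and 30 min and overlapped at 60 min, with log2 ratios of -1.24, -0.58, -0.41 and -0.10 in that order. The average log2 ratio of -0.58 passed the exact permutation test (two-sided p = 0.00463, Benjamini-Hochberg 0.0278 over 6 measures, n = 8 libraries a genotype). It remained below 0.05 after adjustment without any single library (0.00926 to 0.0463) and did not without the 10 min libraries (log2 ratio -0.36, adjusted 0.167) or without the 30 min libraries (-0.64, adjusted 0.0741). With 216 assignments left in those subsets, the smallest possible raw p is 0.00926, and the rRNA share had an exact permutation p of 0.0278 in both. Over 6 measures that smallest p adjusts to 0.0556 unless other measures are also small. The loss of the call there therefore says little about the rRNA share. The Wilson intervals extend at most 0.267 percentage points to either side.

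Within the sparse stretch, Co2 and Co3 were called higher in CKO overall. Co2 had 9.49 to 17.9 CPM in the 8 Control libraries. In CKO it had 42.6 and 40.7 CPM at 10 min, 10.4 and 12.1 at 20 min, 34.7 and 44.8 at 30 min, and 49.5 and 13.8 at 60 min. Thus 5 of 8 CKO libraries were above every Control library and 3 were within the Control range, among them CKO 60 min replicate 2. The overall log2 fold change of Co2 was 1.04 (SE 0.25, adjusted p = 0.0137 in edgeR with Benjamini-Hochberg), and the call was lost without the 30 min libraries (1.04, adjusted p = 0.113) and without either CKO 30 min library.

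Co3 had 1.85 to 4.42 CPM in Control, and 10.6, 11.6, 2.88, 1.57, 15.4, 25.8, 6.51 and 2.30 CPM in the CKO libraries in order of EU time. The same 5 CKO libraries as for Co2 stood above Control. Its overall log2 fold change was 1.28 (SE 0.36, adjusted p = 0.0286 in edgeR with Benjamini-Hochberg), lost without the 30 min libraries (0.97, adjusted p = 0.112) and in 6 of 16 fits without 1 library: without either Control 10 min library, either Control 30 min library, CKO 10 min replicate 2 or CKO 60 min replicate 1. Co3 had 28 to 152 counts a library, and the doubt over reads shared with a nuclear copy may extend to it.

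By EU time, 3 of these 6 genes were called higher at 10 min (background 6.45%; Co2 1.78, Atp6 1.34 and Co3 2.34 on the log2 scale), none at 20 min (background 0.706%), 2 at 30 min (background 29.4%; Co2 1.02, which held in 7 of 16 fits without 1 library, and Co3 2.08) and 1 at 60 min (background 1.79%; Co2 1.59). The 60 min call of Co2 held in 3 of 16 fits without 1 library, and its fold change was 0.38 without CKO 60 min replicate 1. At 10 min the Co2 call was lost without either Control library or CKO 10 min replicate 1, and the Atp6 call without Control 10 min replicate 2 or CKO 10 min replicate 1. Atp8, Nd3 and Nd4l passed at no time.

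The tRNA genes were scarcely recorded. Of 22 tRNA genes, 4 had no count in any library, which allows a level of up to 0.0111 CPM each (3 counts of 270697806). Another 6 were detected in all 16 libraries, and 6 averaged at least 1 CPM. ENSMUSG00000064350 had the highest mean, 12.2 CPM, followed by ENSMUSG00000064346 with 8.26 CPM. In Control ENSMUSG00000064350 had 6.53, 13.9, 7.37, 6.16, 0.466, 0.664, 26.1 and 25.2 CPM in order of EU time. In CKO it had 21.2, 10.8, 21.8, 19.0, 0.193, 0.979, 0.197 and 34.3 CPM. Both genotypes were lowest at 30 min, and the CKO 60 min libraries held 4 and 911 counts of it, so replicates of 1 group differed more than the genotypes did.

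No tRNA gene was called at 10, 20 or 60 min or over all EU times. At 30 min 2 of the 10 tested were called higher in CKO, beside a background of 29.4% of identifiers under the main filter. ENSMUSG00000064346 had 5.51 and 4.98 CPM in Control and 31.4 and 10.96 CPM in CKO at 30 min, with a log2 fold change of 1.74 (SE 0.49, adjusted p = 0.00682 in edgeR with Benjamini-Hochberg). ENSMUSG00000064369, named after its values were seen, had 10 and 1 counts in Control and 80 and 31 counts in CKO at 30 min (log2 fold change 4.44, SE 1.48, adjusted p = 0.0176 in edgeR with Benjamini-Hochberg). Both calls were lost without CKO 30 min replicate 1, and the second also without Control 30 min replicate 2. The tRNA share of mitochondrial counts ranged from 0.0447% to 0.590% and was highest in the CKO 30 min libraries. Its average log2 ratio between genotypes was 0.13 (exact permutation p = 0.667, Benjamini-Hochberg 0.8).

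Labelling for 60 instead of 10 min was then compared within each genotype. In Control cells 7 of 25 mitochondrial genes were called, all higher at 60 min, against a background of 10.1% in either direction, 6.88% higher and 3.21% lower. Without the 30 min libraries it was 7 of 23 (background 19.3%). They were the 6 abundant heavy-strand mRNAs, from 0.82 (Nd1) to 1.17 (Nd5) on the log2 scale, and ENSMUSG00000064339 at 0.31. The calls of Nd1 and Nd4 were lost without any one of the Control 10 or 60 min libraries. That of Nd5 was lost without Control 10 min replicate 2. Nd6 had a log2 change of -0.10 in Control and was not called.

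In CKO cells 6 of 25 genes were called, against a background of 15.2%. Of these 5 fell (background 6.24%) and 1 rose (8.96%), and without the 30 min libraries 6 of 23 were called, all lower (background 26.7%). On the log2 scale Nd1 changed by -0.85 (SE 0.16), Nd2 by -0.49 (SE 0.08), Co1 by -0.36 (SE 0.08), Cytb by -0.32 (SE 0.07) and Nd6 by -0.85 (SE 0.24). Nd4 at -0.21 and Nd5 at 0.23 were not called, and ENSMUSG00000064339 was called higher at 0.21. All 5 falls are relative to other genes and reversed under ERCC scaling, to 1.29 (Nd1 and Nd6), 1.64 (Nd2), 1.77 (Co1) and 1.81 (Cytb), where the median of all identifiers was 2.01. The calls of Nd6 and ENSMUSG00000064339 held in 4 and 5 of 16 fits without 1 library, and those of Co1 and Cytb were lost without CKO 10 min replicate 1 or CKO 60 min replicate 1. Fewer genes were called without CKO 10 min replicate 1, and more without either CKO 30 min library. The share of all identifiers called moved in the same direction, but by less than the mitochondrial share.

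A test of whether the genotype difference varied with EU time called 10 of 25 mitochondrial genes, against a background of 22.7%. Cytb (adjusted p = 6.43e-11 in edgeR with Benjamini-Hochberg), Co1 (3.09e-10), Nd2 (6.50e-09) and Nd1 (0.000893) were also called without the 30 min libraries, when 4 of 23 genes passed against a background of 5.58%. Nd4, Nd6, Co2, Co3, ENSMUSG00000064339 and ENSMUSG00000064346 were not called without the 30 min libraries. The number called was lower without either Control 30 min library, as was the share of all identifiers called.

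Counts per ERCC count give the output of the mitochondrial genome on a spike-in scale. The ERCC RNA entered after capture, so cell number, RNA yield and the efficiency of capture are part of this ratio and their shares were not tested. In Control libraries there were 0.271 and 0.288 mitochondrial counts per ERCC count at 10 min, 1.286 and 1.281 at 20 min, 0.913 and 0.992 at 30 min, and 5.48 and 5.37 at 60 min. In CKO libraries there were 1.402 and 1.47 at 10 min, 1.96 and 1.94 at 20 min, 1.02 and 0.544 at 30 min, and 3.63 and 6.23 at 60 min. CKO libraries were above Control at 10 min, by 2.36 on the log2 scale (SE 0.06), and at 20 min, by 0.60 (SE 0.0057). They lay on both sides of Control at 30 min (log2 ratio -0.36, SE 0.46) and at 60 min (-0.19, SE 0.39). The group mean at 60 min was 19.4 times that at 10 min in Control and 3.43 times in CKO, where all mouse counts per ERCC count gave 11.1 and 4.49 times.

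By class, protein gene counts per ERCC count were 5.50 times higher in CKO at 10 min and rRNA counts 2.18 times, beside 2.64 times for all mouse counts. Averaged over EU times, mitochondrial counts per ERCC count had a log2 ratio of 0.61 between genotypes (exact permutation p = 0.140, Benjamini-Hochberg 0.271). That ratio was 0.02 without the 10 min libraries and 0.93 without the 30 min libraries, neither of which passed after adjustment (Benjamini-Hochberg 0.926 and 0.0741). With 216 assignments in these subsets, a measure alone at the smallest possible p would have an adjusted value of 0.0556. The least squares slope on EU minutes was 0.103 ± 0.0130 counts per ERCC count and min in Control and 0.0712 ± 0.0237 in CKO (SE, n = 8 libraries). Their log2 ratio of -0.53 did not pass (exact permutation p = 0.167, Benjamini-Hochberg 0.271). It was -1.52 without CKO 60 min replicate 2, with a Benjamini-Hochberg value of 0.0278, and -0.26 without CKO 60 min replicate 1, so the slope of CKO rests on which of these 2 libraries is used. The 30 min libraries lie at the mean EU time and carry no weight in the slope. They do enter its SE, which without them was 0.00079 in Control and 0.0174 in CKO.

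**Figure D5:**
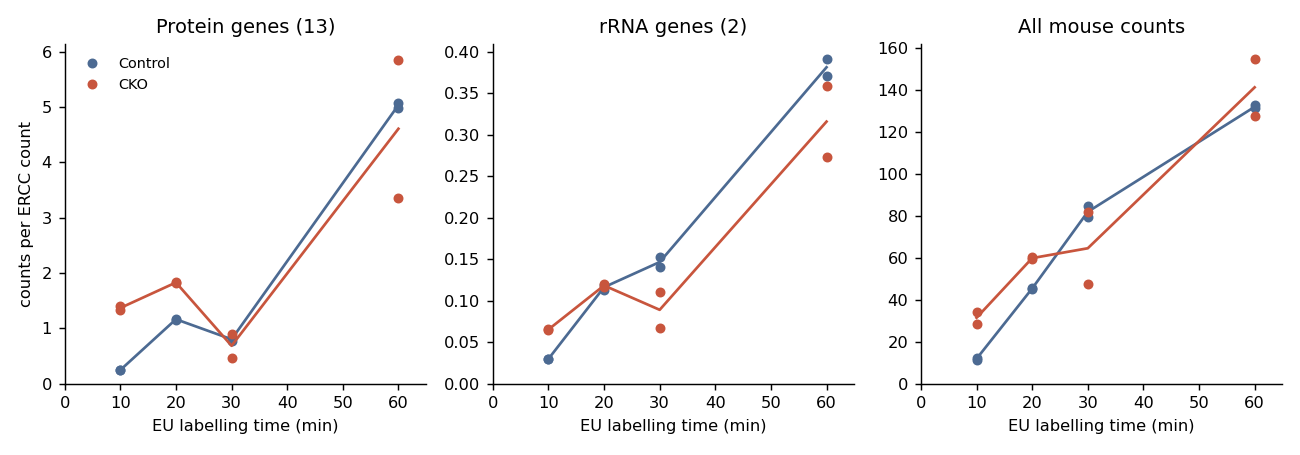
Counts per ERCC count of the 13 mitochondrial protein genes, the 2 rRNA genes and all mouse identifiers against EU labelling time in min, with a point per library and lines through the group means. For the mitochondrial classes both genotypes are higher at 60 than at 10 min, and at 30 min the protein genes drop to 0.474 to 0.900 while all mouse counts in Control continue upward.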

How the data were processed

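The authors deposited raw counts per gene identifier for 16 libraries, with 92 ERCC species beside the mouse identifiers. The build was mm10 and the tools included HTSeq, HISAT2 2.1.0, Trimmomatic 0.38 and CASAVA, per the submitters' processing notes. Annotation, strand setting and treatment of multiply mapping reads were not given in the sources used here. Per the labels, captured RNA was built into libraries with a stranded total RNA kit, and is called both total and nascent polyA RNA.

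Counts were tested in edgeR 4.0.16 (R 4.3.3; TMM, robust quasi-likelihood, threshold 0.05, Benjamini-Hochberg over all identifiers tested). The overall comparison used genotype plus EU time, and the others 8 group means. Single-value measures were tested by exact permutation, with genotype exchanged within each EU time (1296 ways, smallest p 0.00154), with Benjamini-Hochberg adjustment over 6 measures. Counts were simulated with the same spread between libraries for every identifier and no effect of EU time. Changes were placed only in identifiers outside the mitochondrial genome that averaged at least 10 CPM. In the 10 min comparison, 60% of those changed 2-fold and 100% of those changed 4-fold were recovered. These rates do not cover genes of lower level, among them Co3, Atp6, Atp8, Nd3, Nd4l and most tRNA genes. The alternatives were DESeq2 1.42.0, other scalings including ERCC, filters, a replicate block, and omitted libraries or EU times.

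The members and lists were chosen with earlier results of these data known. All rRNA and protein genes are named, tRNA genes are given by range apart from the pair with the highest mean and those called, and the split at Co2 to Nd4l was made after values were seen. Gene positions come from RefSeq GRCm38.p6. The nuclear lists for mitochondrial transcription and RNA processing were not analysed here.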

Additional observations from a re-analysis of the deposited data

Results flagged for a closer look

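The genotype difference varied with EU time for 10 of 25 tested mitochondrial genes by edgeR's F-test of the genotype by EU time terms, with Benjamini-Hochberg adjustment, beside 22.7% of all identifiers tested. The adjusted p was 6.43e-11 for Cytb, 3.09e-10 for Co1, 6.50e-09 for Nd2, 0.000893 for Nd1 and 0.00974 for Nd4, genes whose log2 fold change was 1.14 to 1.32 at 10 min and -0.35 to -0.05 at 60 min. For Nd6 it was 0.0091, with 1.47 at 30 min and -0.60 at 60 min. ENSMUSG00000064339 (adjusted p 0.000905) was lower at all 4 EU times, between -0.83 and -0.28. For Co2 (0.0098) and Co3 (0.0175) the values follow the CKO 10, 30 and 60 min libraries that stand above Control. Of these genes Nd1, Nd2, Co1 and Cytb kept the call without the 30 min libraries, when 4 of 23 mitochondrial genes passed beside 5.58% of all identifiers. The causes were not tested.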

How the results depend on the processing

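The numbers of mitochondrial genes called changed as follows, each with the share of all identifiers called under the same setting. With DESeq2 they were 5 over all EU times (15.8%), 4 at 20 min (3.1%) and 14 at 30 min (38.9%), and with a stricter filter 6 of 15 over all EU times (24.4%). Without a filter they were 6 of 33 at 20 min (0.814%) and 6 of 33 at 60 min (2.07%). Under ERCC scaling edgeR called 0 at 20 min (0.531%) and 0 at 60 min (0.0437%), with 5 and 2 at an unadjusted p below 0.05, and 19 (66.5%) and 15 (53%) for 60 against 10 min in Control and CKO. DESeq2, run with its own size factors and not with ERCC scaling, called 4 at 20 min (3.1%) and 3 at 60 min (7.06%). Leaving out the 30 min libraries gave 4 of 23 for genotype by EU time (5.58%). Leaving out each library in turn gave 2 to 4 over all EU times, 6 to 10 at 10 min (6 without Control 10 min replicate 1), 1 to 8 at 20 min, 6 to 13 at 30 min, 1 to 10 at 60 min, 4 to 8 for Control and 2 to 10 for CKO between 10 and 60 min, and 6 to 13 for genotype by EU time. Among single-value log2 ratios, the mitochondrial share reversed without the 10 min libraries (-0.0123), the Nd6 share without the 10 min (0.30) or 60 min libraries (0.12), and the tRNA share without the 30 min libraries (-0.39). The rRNA share lost its call at -0.36 and -0.64 without the 10 and 30 min libraries, where the few assignments left make a pass after adjustment hard to reach. Without single libraries the ranges were 0.17 to 0.30 (mitochondrial share), 0.49 to 0.72 (per ERCC), -1.52 to -0.26 (rate), -0.63 to -0.53 (rRNA share), -0.0694 to 0.0245 (Nd6 share) and -0.0374 to 0.29 (tRNA share). The rate without the 60 min libraries could not be fitted. Reversed genes were ENSMUSG00000064337 overall under ERCC scaling (0.31), Nd1 overall without Control 10 min replicate 1 (-0.064), replicate 2 (-0.068) or CKO 10 min replicate 1 (-0.015), within a range of -0.068 to 0.18 without single libraries, Nd6 overall without 30 min (-0.18), ENSMUSG00000064339 under ERCC scaling at 10 min (1.04) and 20 min (0.00019), and, for 60 against 10 min in CKO under ERCC scaling, Nd1 (1.29), Nd2 (1.64), Co1 (1.77), Nd6 (1.29) and Cytb (1.81). The causes were not tested.

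Equal replicate numbers did not pair the samples: the correlations of same-number deviations were -0.0649 to 0.0307 over 28 pairs of groups. With the replicate block 6 genes were called at 20 min (1.47% of all identifiers) and 4 at 60 min (3.77%), and the rRNA share stayed at -0.58 with a Benjamini-Hochberg value of 0.0938. Low counts limit the tRNA genes, with 245 to 1194 counts a library in sum, and the genes from Co2 to Nd4l, with 303 to 1692.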
